A study of Mus musculus with 5 samples.

Results

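The 63 mouse genes with a mitochondrial ribosomal protein symbol were compared between Erbb2-transfected NIH3T3 fibroblasts and the parental NIH3T3 line on 5 spotted cDNA arrays. They are all genes whose symbol starts with Mrpl or Mrps and a number and which have at least 1 probe naming no other gene, out of 9669 genes so named. Their symbols place 41 in the large (Mrpl) and 22 in the small (Mrps) subunit. The transfected cells constitutively carried human HER-2/NEU (ERBB2) under a cytomegalovirus promoter, and the NIH3T3 cells were untransfected. Nothing else separated the groups per the labels, which name 1 transfected line and no vector control, so the receptor and the history of that line cannot be told apart. Total RNA of both lines was hybridised to each array in different dyes, with 3 arrays of preparation A (A1, A2, A3) and 2 of preparation B (B1, B2). Erbb2 cDNA carried Cy3 on A1, A2 and B1 and Cy5 on A3 and B2.

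Mitochondria carry their own ribosome, which translates the few membrane proteins of oxidative phosphorylation that mitochondrial DNA encodes. Its RNAs come from mitochondrial DNA, while all of its proteins are encoded in the nucleus, made in the cytosol and imported. Part of these proteins have counterparts in bacterial ribosomes and part are found only in mitochondria. ERBB2 is a receptor tyrosine kinase that drives growth signalling.

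Across the 27 of the 63 genes that could be tested, no difference between Erbb2-transfected and NIH3T3 cells passed the threshold. Means ran from -0.54 to 0.17 in the large subunit and from -0.63 to 0.38 in the small. The median log2 ratio of Erbb2-transfected over NIH3T3 was -0.02 for the 20 large subunit genes and 0.10 for the 7 small subunit genes, beside -0.02 for all 4892 features tested. The small subunit median rests on few genes, and without array B1 it was -0.17 over 8 genes and without A2 -0.48 over 3. The lowest were Mrps23 at -0.63 and Mrpl10 at -0.54, and the highest were Mrps22 at 0.38 and Mrps11 at 0.35. A value of 1 is a doubling in Erbb2-transfected cells and a value of -1 a halving. No tested mitochondrial ribosomal protein gene reached a size of 1, which 3.92% of all features did.

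The direction of all ratios is likely rather than settled. The labels do not name the dye in the numerator, and Cy5 was taken as they list it first. Under the opposite reading every sign below turns and every size stays. The values are also relative to each array, since the authors set the median ratio of each array to 1. A shift common to most genes would not be visible, and ratios from total RNA cannot tell fewer cells carrying a transcript from less of it per cell. Nothing in the labels says that the preparations came from separate cultures, so the p-values may measure technical spread alone.

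The sequences just upstream of 6 of these genes are shown because they carry the extremes of the small subunit (Mrps23, Mrps17, Mrps22, Mrps11), the lowest large subunit gene (Mrpl10) and the one pair among the 63 whose members start back to back (Mrps11 and Mrpl46). They are given in the direction of transcription, from RefSeq on build GRCm38.p6. Capitals mark the letters CCGGAAG, the core bound by ETS factors such as GABPA, which was found in one of them. Mrps23 lies on the plus strand of chromosome 11, and its 120 bases are chr11:88204268-88204387.
Mrps23: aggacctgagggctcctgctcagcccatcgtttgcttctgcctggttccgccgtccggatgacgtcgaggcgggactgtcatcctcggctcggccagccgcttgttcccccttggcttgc
Mrpl10 lies on the plus strand of the same chromosome, at chr11:97041462-97041581.
Mrpl10: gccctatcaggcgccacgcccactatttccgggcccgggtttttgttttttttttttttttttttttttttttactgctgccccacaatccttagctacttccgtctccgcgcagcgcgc
Mrps17 lies on the plus strand, at chr5:129715377-129715496.
Mrps17: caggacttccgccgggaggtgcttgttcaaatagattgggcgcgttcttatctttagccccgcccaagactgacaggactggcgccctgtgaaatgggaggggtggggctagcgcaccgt
Mrps22 lies on the minus strand, at chr9:98601680-98601799.
Mrps22: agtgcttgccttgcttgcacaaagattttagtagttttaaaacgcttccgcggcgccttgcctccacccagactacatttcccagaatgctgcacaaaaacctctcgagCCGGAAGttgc
Mrps11 (plus strand) and Mrpl46 (minus strand) start 41 bases apart and run away from each other, so the whole space between them, chr7:78783090-78783130, is upstream of both. It is shown on the plus strand.
Mrps11 and Mrpl46: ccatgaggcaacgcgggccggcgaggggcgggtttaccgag

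Coverage differed between the arrays and set which genes could be tested. Values were present for 36, 55, 34, 64 and 50 of the 70 probes of these genes on A1, A2, A3, B1 and B2, which is 51.4%, 78.6%, 48.6%, 91.4% and 71.4%, against 26.6%, 56.2%, 35.9%, 86.4% and 64.9% of all 20205 probes. The share was above that of all probes on every array. Of the 41 large subunit genes 16 had a value on all 5 arrays, and of the 22 small subunit genes 3 did. Mrpl55 had no value on any array. A gene was tested where it had a value in both dye orientations of both preparations, which left 20 large and 7 small subunit genes. Over the whole series 3 of the 6 tested fibroblast markers were lower in Erbb2-transfected cells (Col1a1 at -4.93, Col1a2 at -3.97 and Fn1 at -4.61, with limma adjusted p-values of 5.8e-07, 5.8e-07 and 3.76e-07). The other 3 did not pass, with Col3a1 at 0.51, Vim at 0.47 and S100a4 at -0.01. The single tested epithelial marker, Krt19, was at 0.19 (limma adjusted p = 0.634), and none of the leukocyte and endothelial markers was tested. Ratios give no levels, so the presence of a marker was not checked, and no probe used here was named by Erbb2 alone, so the transgene was not checked either.

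The test was limma on the 2 preparation means, with p-values adjusted by Benjamini-Hochberg over all 4892 features and a threshold of 0.05. It called 0 of the 27 genes, while 6.79% of all features were called (332 of 4892, with 2.25% higher and 4.54% lower). At an unadjusted p under 0.05, limma gave 2 of the 27 genes (Mrps23 and Mrpl10), which is 7.41%, beside 22.9% of all features. With the 5 arrays taken as replicates and a term for the dye, 1 gene passed, Mrps23 at -0.64 (limma adjusted p = 0.0457), where 9.44% of all features were called. Taking the preparation as a random block in that fit also called Mrps23 alone (limma adjusted p = 0.0359, with 10.4% of all features called). The block fit estimated the correlation of arrays of a preparation at -0.0489, so it was no stricter than taking the arrays as independent. With the 5 arrays as replicates and no dye term 0 genes passed, where 5.89% of all features were called.

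The precision of these estimates rests mainly on the spread over all features, since the fit had 10.2 prior and 1 residual degrees of freedom. Standard errors ran from 0.203 to 0.242, and the 95% intervals reached between 0.446 and 0.530 to either side. For 26 of the 27 genes the whole interval lay between -1 and 1. The exception was Mrps23, with an interval from -1.09 to -0.17. The intervals leave out the spread between dyes within a preparation, so they do not exclude a doubling or a halving. Mrpl33, for example, stood at -1.20 on B1 and 0.93 on B2, with an interval from -0.41 to 0.51. The spread of the estimates was set beside that of all features. All 27 lay between the 5th and the 95th percentile of all features (-0.76 to 0.63) and 18 between the 25th and the 75th (-0.27 to 0.23). A mean under 0.2 in size was found for 18 of 27 genes (66.7%), against 41.4% of all features, and the spread of the means, as a standard deviation scaled from the median absolute deviation, was 0.144 against 0.369. By subunit that spread was 0.117 for the 20 large subunit genes and 0.364 for the 7 small subunit genes, so the small subunit was spread about as widely as all features. The median standard deviation over arrays was 0.473 for these genes and 0.440 for all features. In 24 of the 27 genes the mean was smaller than the standard deviation over arrays.

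**Figure D1:**
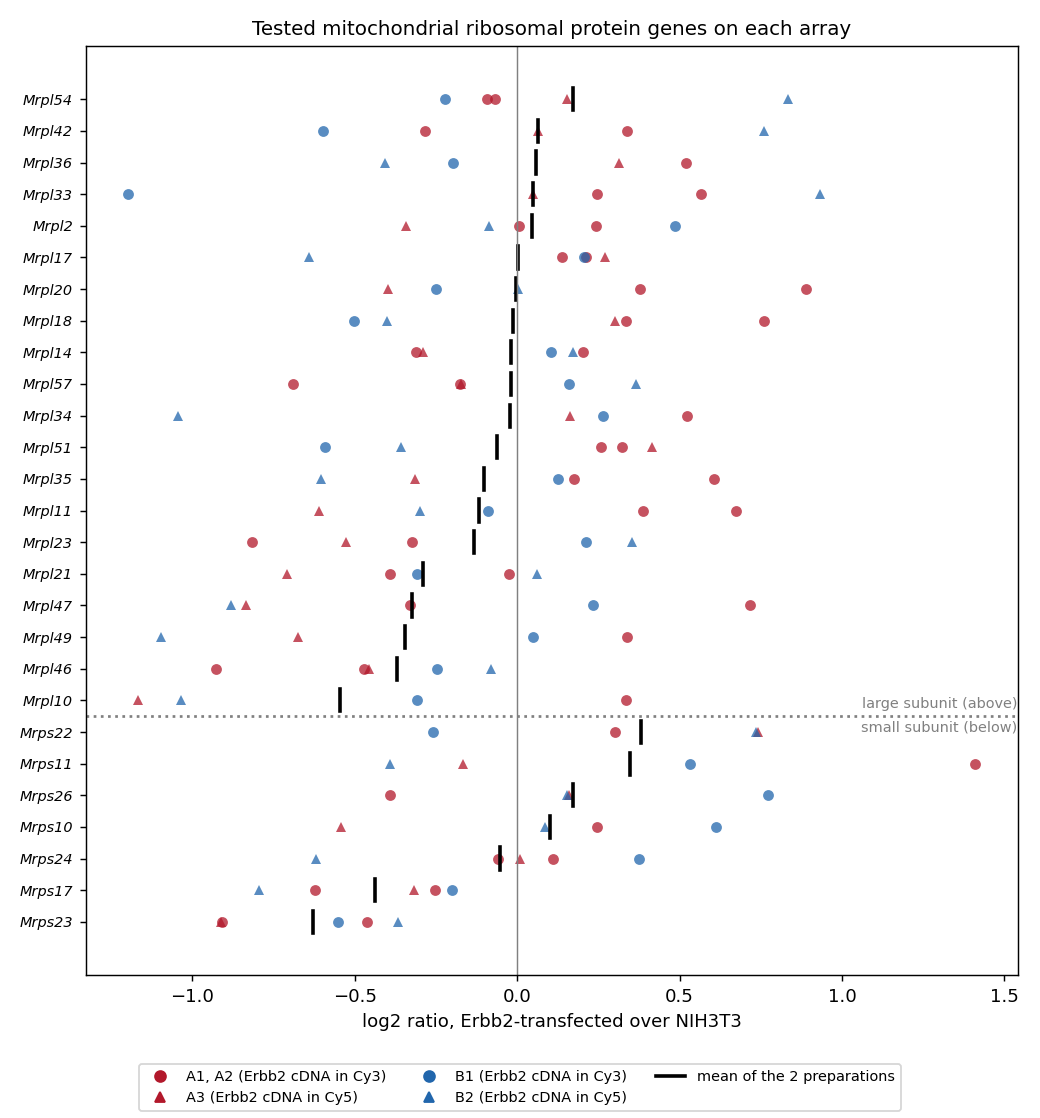
Log2 ratio of Erbb2-transfected over NIH3T3 cells (x axis) on each array for the 27 tested genes (rows, the large subunit above and the small subunit below, by mean). Circles are arrays with Erbb2 cDNA in Cy3 and triangles arrays with it in Cy5, red is preparation A and blue preparation B, and the black bar is the mean of the preparations. Mrps23, Mrps17 and Mrpl46 are the rows with all 5 points below 0, while most rows have points on both sides.

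The small subunit is described first, since it holds the extremes. Mrps23 is a mitochondria-specific protein of the small subunit. Its log2 ratio was -0.91, -0.46 and -0.91 on the arrays of preparation A, in the order A1 to A3, and -0.55 and -0.37 in preparation B. All 5 arrays lay below 0, in both dye orientations and both preparations. The mean was -0.63 ± 0.24 (SD, n = 2 preparations), with a limma p of 0.0117 and an adjusted p of 0.102. Its first probe gave -0.87, -0.38 and -0.58 on A1, A2 and B1, and its second probe gave -0.95, -0.55 and -0.52 there, so the probes lay within 0.2 of each other on each of these arrays. On A3 and B2 only the second probe had a value. Its value on A3 came from a dim spot, described further below. A3 is the only array of preparation A with Erbb2 cDNA in Cy5.

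Mrps17, the counterpart of the bacterial small subunit protein uS17, was the other small subunit gene below 0 on every array. It stood at -0.62, -0.25, -0.32, -0.20 and -0.80 on A1, A2, A3, B1 and B2, with a mean of -0.44 ± 0.09 (SD, n = 2; limma adjusted p = 0.228). Its second probe had a value on B1 alone, where it gave 0.11 against -0.52 for the first.

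Mrps22 and Mrps11 had the highest means. Mrps22, a mitochondria-specific protein in which human mutations impair mitochondrial translation, stood at 0.30, 0.74, -0.26 and 0.74 on A2, A3, B1 and B2. All but B1 lay above 0, and the mean was 0.38 ± 0.20 (SD, n = 2; limma adjusted p = 0.311). Mrps11, the counterpart of bacterial uS11, stood at 1.41, -0.17, 0.53 and -0.39 on A2, A3, B1 and B2. It was above 0 on the arrays with Erbb2 cDNA in Cy3 and below 0 on those with it in Cy5, so its mean of 0.35 ± 0.39 (SD, n = 2; limma adjusted p = 0.381) averages opposite signs. By dye, Mrps22 averaged 0.74 with Erbb2 cDNA in Cy5 and 0.02 with it in Cy3. Both values of Mrps22 at 0.74 and that of Mrps11 on A2 came from dim spots, described further below. Without B2 the mean of Mrps22 was 0.13, and without B1 that of Mrps11 was 0.12. Leaving out B1 or B2 leaves preparation B in 1 dye orientation, where the dye effect does not cancel.

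Of the other tested small subunit genes, Mrps26, a mitochondria-specific protein, was at -0.39, 0.16, 0.77 and 0.15 on A2, A3, B1 and B2 (mean 0.17). Mrps10, the counterpart of bacterial uS10, was at 0.24, -0.54, 0.61 and 0.09 on the same arrays (mean 0.10). Mrps24, the counterpart of bacterial uS3, was at -0.06, 0.11, 0.01, 0.37 and -0.62 on the 5 arrays (mean -0.05). Each of these genes had values on both sides of 0. Without B1 the mean of Mrps10 was -0.03, and without B2 that of Mrps24 was 0.20.

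Mrpl10, a large subunit protein of the stalk that recruits translation factors, had the lowest large subunit mean. It stood at 0.33, -1.17, -0.31 and -1.03 on A2, A3, B1 and B2. The values with Erbb2 cDNA in Cy5 were near -1.1 and those with it in Cy3 lay on either side of 0. The mean was -0.54 ± 0.18 (SD, n = 2), with a limma p of 0.0229 and an adjusted p of 0.147. It was -0.17 without A3 and -0.36 without B2, the arrays with Erbb2 cDNA in Cy5 (limma adjusted p = 0.861 and 0.446). The B1 value averages its probes, which gave -0.10 and -0.51.

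Mrpl46, a mitochondria-specific protein, was the large subunit gene below 0 on all 5 arrays, at -0.93, -0.47 and -0.46 in preparation A and -0.25 and -0.08 in preparation B. Its mean was -0.37 ± 0.29 (SD, n = 2; limma adjusted p = 0.334). Mrpl49, which is found in mitochondria alone, stood at 0.34, -0.68, 0.05 and -1.10 on A2, A3, B1 and B2 (mean -0.35, limma adjusted p = 0.361). Mrpl47, the counterpart of bacterial uL29 near the exit of the peptide tunnel, stood at 0.72, -0.33, -0.83, 0.23 and -0.88 on the 5 arrays (mean -0.32, limma adjusted p = 0.379). Both were lowest on the arrays with Erbb2 cDNA in Cy5, and without B2 their means were -0.06 for Mrpl49 and -0.04 for Mrpl47. Dim spots, described further below, gave the values of Mrpl47 on A1 and B1. They also gave those of the first probe of Mrpl49 on A3 and of its second probe on B2. Without dim values the mean of Mrpl49 was -0.53, and Mrpl47 could not be tested.

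At the upper end of the large subunit stood Mrpl54, Mrpl42, Mrpl36 and Mrpl33. Mrpl54, a mitochondria-specific protein, was at -0.09, -0.07, 0.15, -0.22 and 0.84 on A1, A2, A3, B1 and B2. Its mean of 0.17 became -0.09 without B2, where preparation B keeps 1 dye orientation. Mrpl42, also mitochondria-specific, was at 0.34, -0.28, 0.06, -0.60 and 0.76 (mean 0.06). Mrpl36, the counterpart of bacterial bL36, was at 0.52, 0.31, -0.20 and -0.41 on A2, A3, B1 and B2 (mean 0.06). Mrpl33, the counterpart of bacterial bL33, was at 0.57, 0.24, 0.05, -1.20 and 0.93, with its lowest and highest values in the same preparation (mean 0.05). None of these means passed the test in limma, with adjusted p-values from 0.678 to 0.916. Without B2 those of Mrpl42 and Mrpl33 also lay below 0, at -0.28 and -0.48.

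The other 12 tested large subunit genes had means between -0.29 and 0.05. The lowest was Mrpl21 (counterpart of bL21) at -0.29. Mrpl23, at the exit of the peptide tunnel, was at -0.13, Mrpl11, at the base of the stalk, at -0.12 and Mrpl35 at -0.10. Mrpl51 was at -0.06, and Mrpl34, Mrpl57 and Mrpl14 were each at -0.02. Mrpl18 was at -0.01, Mrpl20 at -0.0027, Mrpl17 at 0.0027 and Mrpl2, close to the centre where peptide bonds form, at 0.05. Their means were near 0 although single arrays were not, since Mrpl18 for example ran from -0.50 on B1 to 0.76 on A1.

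**Figure D2:**
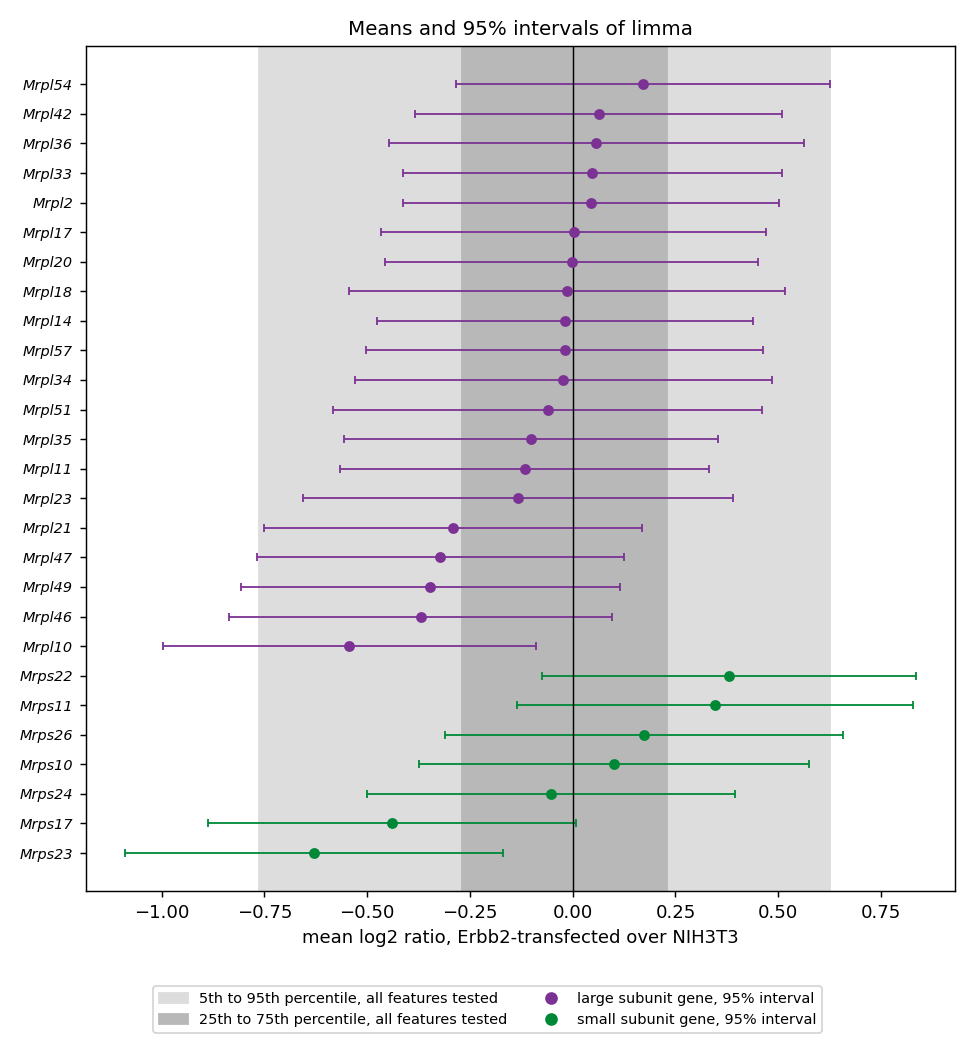
Mean log2 ratio of Erbb2-transfected over NIH3T3 cells (x axis) with its 95% limma interval for each of the 27 tested genes (rows), large subunit in purple above and small subunit in green below. The shaded bands hold the 5th to 95th and the 25th to 75th percentile of all features tested. All 27 means lie inside the wide band, and the intervals of Mrps23 and Mrpl10 lie wholly below 0 before adjustment.

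Of the 62 genes with a value, 35 could not enter the test because at least one dye orientation of one preparation had no value. Mrpl12, the stalk protein that also binds the mitochondrial RNA polymerase, stood at 0.66 and 0.99 on A1 and A2 and 0.65 on B1. All 3 arrays had Erbb2 cDNA in Cy3, so line and dye cannot be told apart. Mrps18a, which sits in the large subunit despite its symbol, stood at 0.96, 0.25 and 0.38 on A2, B1 and B2, again above 0 throughout. In a limma fit of the mean of the arrays present in both preparations, with dyes not balanced, 0 of 51 genes passed, where 2.04% of 11817 features did, and 6 had an unadjusted p under 0.05, beside 16.2% of features. Those above 0 were Mrpl12 at 0.74 (adjusted p = 0.161) and Mrps18a at 0.64 (0.261), and those below 0 were Mrpl28 at -0.70, Mrps23 at -0.61, Mrps5 at -0.60 and Mrps33 at -0.58.

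Further genes without a test had 1 sign on 3 or more arrays. Mrps9, the counterpart of bacterial uS9, was at 0.42 and 0.34 on A1 and A2 and at 0.37 and 0.40 on B1 and B2. Its standard deviation over arrays was 0.035, and B2, in the opposite dye orientation, lay between A1 and B1. Mrpl3, the counterpart of uL3, was at 0.86, 0.39 and 0.14 on A2, B1 and B2. The largest single ratio belonged to Mrpl30, at 2.84 on A3 and 0.13 on A2, with no value elsewhere. The lowest were Mrpl28 at -1.66 on B2, Mrps5 at -1.57 on A3 and Mrps16 at -1.43 on B1, its only array.

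The remaining genes gave a few values each. Mrpl13 was at -0.50 and -0.83 on B1 and B2, and Mrpl48 at 0.42 and 0.41 on A1 and A2. Mrpl38 ran from -0.33 to 1.20 over 4 arrays, Mrps12, at the decoding centre, from -1.12 to 0.51, and Mrps7 from -0.52 to 1.11 over 3. Mrps36, now assigned to the 2-oxoglutarate dehydrogenase complex rather than the ribosome, ran from -0.76 to 0.81. Mrpl58, a peptidyl-tRNA hydrolase built into the large subunit, was at 0.51 and 0.09 on B1 and B2, and Mrpl45, which helps to hold the ribosome at the inner membrane, ran from -0.42 to 0.51. Values on a single array were those of Mrpl4 (0.22), Mrpl9 (0.09), Mrpl44 (-0.53) and Mrpl53 (-0.51) on B1 and Mrps15 (0.57) on B2. Mrpl1, Mrpl15, Mrpl24, Mrpl37, Mrpl39, Mrpl43, Mrpl52, Mrps18c, Mrps25, Mrps27, Mrps30, Mrps33 and Mrpl28 had both signs. Mrps34 (0.58 and 0.19) and Mrps35 (0.11 and 0.36) lay above 0 on A2 and B1.

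Summarised by array, neither subunit kept to one side of 0. The median over the large subunit was 0.20, 0.15, -0.17, -0.05 and -0.05 on A1, A2, A3, B1 and B2. The small subunit was taken by symbol, and so with Mrps36 and with Mrps18a and Mrps30, which sit in the large subunit. Its median was -0.22, 0.24, -0.17, 0.19 and -0.22. The medians of all genes stayed between -0.02 and 0.01. The subunits had medians of opposite sign on A1 and B1 and of the same sign on A2, A3 and B2. By preparation, the large subunit median over tested genes was -0.0012 in A and -0.18 in B, and that of the small subunit was -0.12 in A and 0.07 in B.

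**Figure D3:**
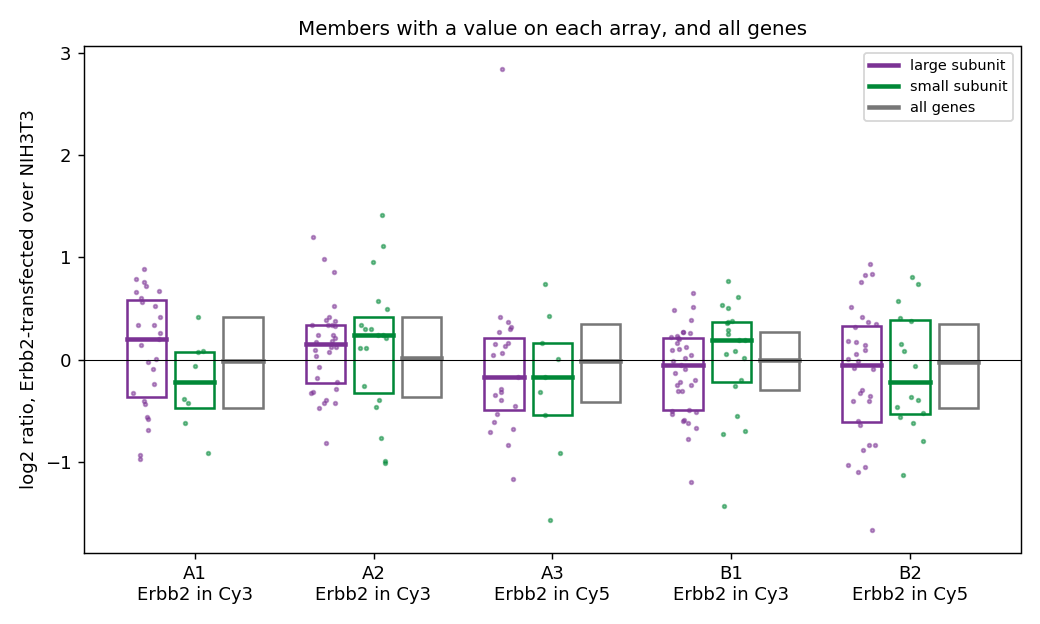
Log2 ratio, Erbb2-transfected over NIH3T3 (y axis), of every mitochondrial ribosomal protein gene with a value on each array (x axis, with the dye of Erbb2 cDNA). Points are genes, and boxes run from the 25th to the 75th percentile. Bars are medians for the large subunit (purple) and small subunit (green), both by symbol, and all genes (grey). The large subunit median is at 0.20 on A1 and at -0.17 on A3, arrays of 1 preparation with opposite dyes, and the point at 2.84 is Mrpl30.

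The exchange of dyes shows how far a ratio depends on the label. The dye estimate is the ratio with Erbb2 cDNA in Cy5 minus that with it in Cy3, in a limma fit over the 5 arrays. No gene of the 27 passed the adjusted threshold and 4 had an unadjusted p under 0.05, beside 0.143% and 12.9% of all features. Those 4 were Mrps11 at -1.25, Mrpl10 at -1.11, Mrpl49 at -1.08 and Mrpl47 at -1.07 (lowest limma adjusted p = 0.28). They include the lowest mean of the large subunit and the second highest of the small. Over the 27 genes the median dye estimate was -0.21, against -0.06 for all features, and 66.7% lay below 0, against 54.5%. Among large subunit genes the estimate lay below 0 in 12 of the 14 with a bacterial counterpart and in 1 of the 6 found in mitochondria alone, and among small subunit genes in 4 of 4 and 1 of 3. Mrps23 differed from these, with -0.64 in both orientations and a dye estimate of 0.0012, although its value on A3 came from a dim spot.

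**Figure D4:**
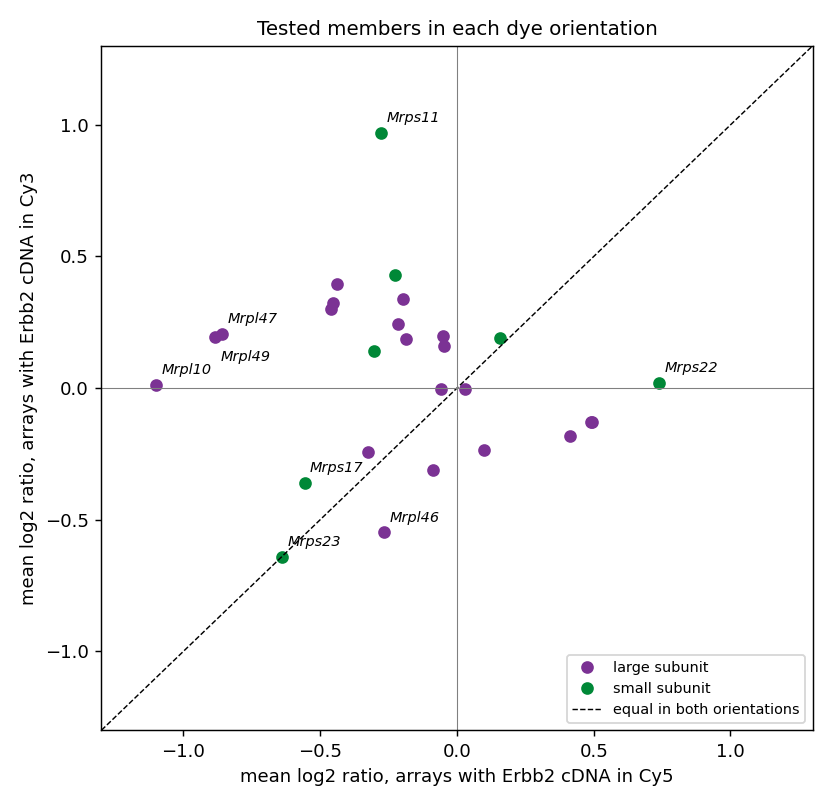
Mean log2 ratio of Erbb2-transfected over NIH3T3 cells on arrays with Erbb2 cDNA in Cy5 (x axis) and in Cy3 (y axis) for the 27 tested genes, with the large subunit in purple and the small subunit in green. Points on the dashed line have equal ratios in both orientations. Mrps23 lies on the line at -0.64, while Mrpl10, Mrpl47, Mrpl49 and Mrps11 lie far above it.

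Preparations were compared in the same way, as A minus B. In limma no gene passed and 3 had an unadjusted p under 0.05, beside 0.0204% and 6.75% of all features. Mrpl18, an RNA-binding protein of the large subunit, was above 0 on every array of preparation A (0.76, 0.34 and 0.30) and below 0 on both of B (-0.50 and -0.40), a difference of 0.90. Mrpl51 went the same way, with a difference of 0.83, and Mrpl23 the other way, with -0.82 (lowest limma adjusted p = 0.686). Leaving out 1 array moved the calls over all features from 1 up to 33 (without A2) for the preparation and from 7 to between 2 (without A3 or B2) and 31 (without A1) for the dye, with 0 of the 27 genes called throughout. Of the 19 genes with values on all 5 arrays, 4 (21.1%) had one sign in A and the other in B, namely these 3 and Mrpl57, against 5.01% of 2872 features. A split by dye was found for 3 (15.8%; Mrpl2, Mrpl35 and Mrpl54), against 8.43%. One sign on all 5 arrays was found for 3 genes (15.8%), against 24.0% of features.

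Agreement between arrays over the probes of these genes was weak. The Pearson correlation of the turned ratios was 0.45 for A1 and A2 (35 probes), arrays of 1 preparation and orientation. It was 0.37 for A3 and B2 (31 probes) and 0.24 for A2 and B1 (51 probes), which share an orientation but not a preparation. The remaining pair of like orientation, A1 and B1, gave 0.18 (34 probes). Pairs of 1 preparation and opposite dyes gave 0.32 for A1 and A3 (20 probes), 0.15 for A2 and A3 (32 probes) and -0.05 for B1 and B2 (47 probes). Pairs that share neither gave 0.05 for A1 and B2 (30 probes), -0.10 for A3 and B1 (31 probes) and -0.27 for A2 and B2 (44 probes). Over all probes the correlations ran from 0.17 to 0.54. Genes are not independent replicates, and probes of 1 gene share a target.

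Cytosolic ribosomal proteins, the other ribosome of the cell, were set beside these genes. Of 29 tested cytosolic genes 1 was called, lower in Erbb2-transfected cells, beside 6.79% of all features. The median was -0.08 with a range from -1.05 to 0.62. Their means were spread by 0.429 on the scaled median absolute deviation, and those of the mitochondrial genes by 0.117 in the large and 0.364 in the small subunit. On single arrays the interquartile range of the mitochondrial genes was 0.885, 0.608, 0.722, 0.574 and 0.927 and that of the cytosolic genes 0.958, 1.38, 0.608, 0.503 and 0.912 on A1, A2, A3, B1 and B2. The sets differed most on A2.

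None of the genes that act around the mitochondrial ribosome passed the test, where 6.79% of all features did. That share would give few calls among so few genes. The lists were the ribosomal proteins under other symbols (2 tested), translation factors (4), aminoacyl-tRNA synthetases (3), assembly and RNA-modifying factors (6), transcription and replication of mitochondrial DNA (2), nuclear regulators (5) and import and membrane insertion (12). Among the ribosomal proteins, Dap3, a small subunit GTPase, was at -0.41 and Chchd1 at -0.10. Lrpprc, which stabilises mitochondrial messenger RNAs, was at -0.61 (limma adjusted p = 0.119) with a value of -1.90 on A3, and Trub2, a pseudouridine synthase, was at -0.54 (limma adjusted p = 0.155). In the same list of 6, 3 lay above 0, and the highest was C1qbp at 0.43 (limma adjusted p = 0.24).

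The regulators and partners gave values of like size. Polg, the mitochondrial DNA polymerase, was at -0.54 and Ppargc1a, a coactivator of mitochondrial biogenesis, at -0.52 (limma adjusted p = 0.156 for both), and Ppargc1a lay below 0 on all 5 arrays (-0.89, -0.53, -0.22, -0.28 and -0.88). Tfam, which packages mitochondrial DNA, was at -0.36 and also below 0 throughout. Nrf1, a transcription factor of nuclear genes for mitochondria, was at 0.21. Oxa1l, the insertase that binds the mitochondrial ribosome at the inner membrane, was at 0.42, 0.53, 0.39 and 0.63 on A2, A3, B1 and B2, with a mean of 0.49 ± 0.03 (SD, n = 2; limma adjusted p = 0.18), and Timm17a, an import channel protein, at 0.34. Gatb and Tsfm had -0.22 and -0.20, and Tars2 and Iars2 0.34 and 0.17.

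The upstream sequences were searched for 4 motifs, none of which was found in most of these genes. A RefSeq sequence of the 250 bases before the start was matched for 56 of the 63 genes (36 large, 20 small), with 62 promoters. The ETS and GABPA core CCGGAAG stood in 16 of them (25.8%), on either strand, against 8.98% of 21263 promoters of protein-coding genes. The NRF1 letters GCATGCG stood in 5 (8.06%, against 3.73%), all of large subunit genes (Mrpl9, Mrpl10, Mrpl17, Mrpl33 and Mrpl39). The YY1 letters AAGATGG stood in 5 (8.06%, against 4.13%), among them that of Mrps11. The E-box CACGTG stood in 7 promoters of 5 genes (11.3% of promoters, against 6.63%). The 41 bases printed above for Mrps11 lack the YY1 letters, so that match lies outside them. Where a neighbour starts within the 250 bases, the window can reach into that gene. The shares over all 32851 promoters were 6.91%, 3.02%, 4.49% and 6.02%. The G and C content was 57.9% in these promoters and 55.5% in those of protein-coding genes. Of the sequences printed above, that of Mrps22 holds the ETS core close to the start and the others hold none of the 4 motifs. Such matches are descriptions of letters, not binding sites.

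Many of these genes also start back to back with a neighbour. Of 56 genes with a start site, 18 (32.1%) had a gene on the opposite strand starting within 1000 bases upstream, against 8.48% of 17492 protein-coding genes. In 5 such pairs both genes were tested. Across the 41 bases printed above, Mrps11 was at 0.35 and Mrpl46 at -0.37. Mrpl21 was at -0.29 beside -0.11 for Ighmbp2, Mrpl47 at -0.32 beside -0.23 for Ndufb5, a subunit of respiratory complex I, and Mrpl18 at -0.01 beside 0.18 for Tcp1, a subunit of the cytosolic chaperonin. Mrpl51 was at -0.06 beside 0.33 for Ncapd2, a condensin subunit. None of these genes passed the test, where 6.79% of all features did.

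**Figure D5:**
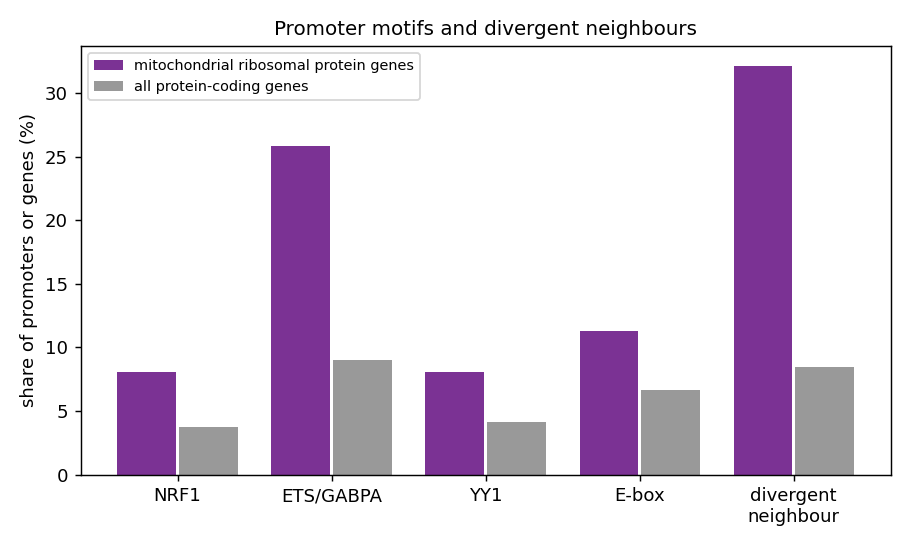
Share (y axis, percent) of promoters holding each motif, and of genes with a divergent neighbour starting within 1000 bases, for mitochondrial ribosomal protein genes (purple) and all protein-coding genes (grey). The purple bar is the higher one in each pair, with 25.8% against 8.98% for the ETS core and 32.1% against 8.48% for divergent neighbours.

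The low end of the signal range was read from the values themselves. Whole-number intensities of at most 100 in both dyes leave ratios that can be recognised after the scaling of an array (here within 1.5e-06 on the log2 scale). Such dim values made up 31 of the 239 probe values of these genes (13.0%) and 13.5% of all values. With them left out 17 of these genes could be tested and limma called 0, while 10% of all features were called (337 of 3368). Mrps23 was not among the 17, because its value on A3 was dim. Mrps22 and Mrps11 dropped out as well, with dim values on A3 and B2 for Mrps22 and on A2 for Mrps11.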

How the data were processed

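Labelled cDNA of Erbb2-transfected and NIH3T3 cells was hybridised to 5 arrays. Per the labels, the authors read spots with GenePix Pro 3.0, subtracted the background from mean intensities and scaled each array to a median ratio of 1. The deposited values are taken as log2 ratios because values 1 above or below the commonest value recur (8 to 20 per array), while 0 lie a natural log of that size away. Ratios of A1, A2 and B1 were sign-turned to Erbb2-transfected over NIH3T3. Probes of 1 gene symbol in the platform annotation (11723 of 20205, with 806 naming several and 7676 unnamed) were averaged per gene, and 9 probes naming a mitochondrial ribosomal protein gene among several were left out. RefSeq gene names (GRCm38.p6) changed 0 symbols.

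Orientations were averaged within a preparation, and whether the mean of the 2 preparations differs from 0 was tested in limma 3.58.1 by lmFit and eBayes (R 4.3.3; 10.2 prior and 1 residual degrees of freedom), with Benjamini-Hochberg adjustment. Dye and preparation were tested with limma on the 5 arrays. The scripts were tested on simulated data. All tested genes are named. Array values are given for the 4 highest and 4 lowest of each subunit, for genes of 1 sign on at least 3 arrays with a mean of size 0.5 or more, and for genes with an array apart. Array values of further genes were picked with those values in view. The genes, lists and rules were chosen with earlier results of these data known. The number of arrays limits the precision.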

Additional observations from a re-analysis of the deposited data

Results flagged for a closer look

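Mrpl17 had 1 array apart from the others. Its log2 ratio of Erbb2-transfected over NIH3T3 was -0.64 on B2 and between 0.14 and 0.27 on the other 4 arrays, a gap above the 95% critical value of Dixon for 5 values. On B2 only 1 of its probes had a value, and that probe gave 0.50, 0.13 and -0.30 on A2, A3 and B1. The other probe gave -0.07, 0.41 and 0.71 there, so the gene values near 0.2 on A2 and B1 average probes of opposite sign. Such a gap was looked for in 38 genes with 4 or 5 values and found in 1, where chance gives about 5%.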

How the results depend on the processing

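The count of genes called was 0 in 17 of 19 alternatives and 1 in the fits of 5 arrays with a dye term and with the preparation as a random block. In both of these Mrps23, at -0.64, passed. The block fit was no stricter than the other, with a correlation within a preparation of -0.0489. Over 18 alternatives Mrps23 lay between -0.68 and -0.57, with limma adjusted p-values from 0.0359 to 0.439. Leaving out each array in turn gave 0 to 0 genes called, as it did for the dye effect and the preparation difference. The large subunit median ran from -0.10 to 0.01 and the small subunit median from -0.48 (without A2, 3 genes) to 0.16 (without B2), with -0.17 without B1. With genes on all 5 arrays alone it was -0.44 and, in an alternative chosen after seeing the data, -0.05 without dim values, each over 3 genes. Of 267 values of 15 named genes, 257 kept direction and side. Those that turned were Mrpl33 (-0.07 with equal scaling, -0.08 with quantile normalization and, leaving out 1 array, -0.48 without B2 to 0.58 without B1), Mrpl42 (-0.01 without A1, -0.28 without B2, up to 0.40 without B1), Mrpl54 (-0.09 without B2 to 0.44 without B1), Mrps24 (-0.30 without B1 to 0.20 without B2) and Mrps10 (-0.03 without B1 to 0.30 without A3). Values that kept their sign but moved by over 1.5 times on leaving out 1 array were Mrpl10 (-0.73 to -0.17), Mrpl49 (-0.63 to -0.06), Mrpl47 (-0.60 to -0.04), Mrpl36 (0.00 to 0.11), Mrps17 (-0.59 to -0.29), Mrps26 (0.02 to 0.33), Mrps11 (0.12 to 0.74) and Mrps22 (0.13 to 0.63). Without A3, B1 or B2, 1 preparation keeps a single dye orientation, so the dye effect no longer cancels in those values. The cause of these moves was not tested. Calls over all features, 332 as reported, ran from 124 (equal scaling) to 564 (probes measured in every orientation and preparation), with 535 after centring on features on all 5 arrays, 544 by probe, 509 with the block, 548 at an adjusted p under 0.1, 193 with quantile normalization, and 498, 263, 219, 211 and 198 without A1, A2, A3, B1 and B2.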
